A study of Mus musculus with 2 samples.

Results

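The transcripts of 8 proteins that decay or stabilise mRNA were followed in mouse macrophages labelled as Oasl1-/-. The 8 genes (Zfp36, Zfp36l1, Zfp36l2, Cnot7, Zc3h12a, Isg20, Zc3hav1 and Elavl1) were chosen by name from 22014 genes measured, and each matched 1 probe set by its symbol. Bone-marrow-derived macrophages of the C57BL/6J strain were grown for 7 days in medium conditioned by L929 fibroblasts. They were labelled as deleted for Oasl1 (Oasl1-/-) or wild type (WT), and both were treated for 9 h with 5 µg/ml of poly(I:C), an artificial double-stranded RNA that stands in for viral RNA. RNA of 3 samples per genotype was mixed before labelling, so there was 1 Affymetrix Mouse Gene ST array per genotype. No array of untreated cells was used, so the values do not show how poly(I:C) changed these genes.

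A difference between the genotypes rests on a single array of each, so it has no replicate check and no p-value. Values are log2 probe set values, and differences are Oasl1-/- minus WT on that scale. The negative control probe sets set a floor for each array at their 95th percentile, 7.68 for Oasl1-/- and 7.75 for WT. At least 1 of the values of 6314 genes exceeded it, and these are called genes above the floor. Their median difference was -0.04, and 63.4% of them had a difference below 0. Oasl1 itself read 11.13 on the Oasl1-/- array and 12.59 on the WT array, 2.76-fold lower but still far above the floor. The labels do not say which stretch of the gene was removed, and so this value does not check the deletion. All 10 macrophage markers were above the floor on the arrays, and none of the T cell, B cell, dendritic cell or fibroblast markers was. Of 10 neutrophil markers, 2 were above it on at least 1 array, Ngp on the Oasl1-/- array only and Csf3r on both. Csf3r had the lower value in Oasl1-/-, 8.68 against 9.07 in WT. The neutrophil markers summed to 1132 linear units on the Oasl1-/- array and 1015 on the WT array. The higher value was in Oasl1-/- for 8 of the 10, all but Ngp of them below the floor on both arrays. At such levels a difference cannot be separated from the background signal. The part of neutrophils in the results below was not tested.

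The life of an inflammatory mRNA is set by proteins that read elements in its untranslated tail. Tristetraprolin (the product of Zfp36) and its relatives from Zfp36l1 and Zfp36l2 bind AU-rich elements through a pair of CCCH zinc fingers and recruit the CCR4-NOT complex, whose deadenylase subunits, CNOT7 among them, shorten the poly(A) tail. Regnase-1 (Zc3h12a) cuts mRNAs at stem-loops, ISG20 is an exonuclease induced by interferon, and the zinc finger antiviral protein ZAP (Zc3hav1) directs CpG-rich viral RNA to decay. HuR (Elavl1) binds AU-rich elements and stabilises the mRNAs that carry them.

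The 7 genes above the floor fell into 2 sets of values. Zfp36l1, Zfp36l2 and Cnot7 were each lower on the Oasl1-/- array by between 1.33-fold and 1.40-fold. Zfp36, Isg20, Zc3hav1 and Elavl1 read nearly alike on both arrays, with differences no larger than 0.08 in size. Zc3h12a was below the floor on both arrays.

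**Figure D1:**
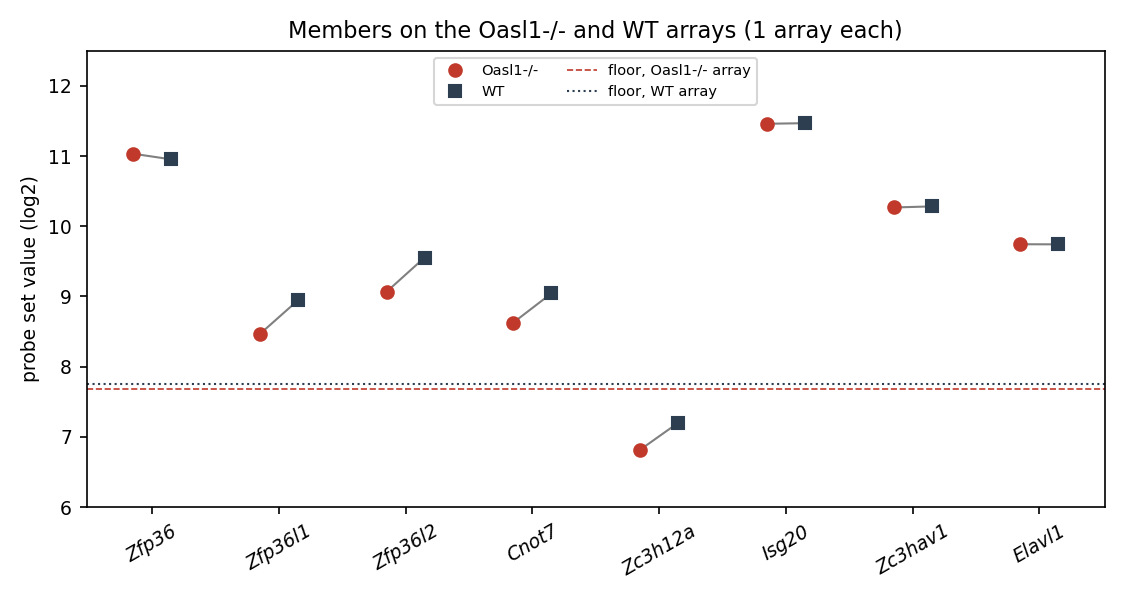
Log2 probe set values (y axis) of the 8 genes (x axis) on the Oasl1-/- array (red circles) and the WT array (dark squares), 1 array each, joined by a grey line per gene, with the floor of each array as a horizontal line. Zfp36l1, Zfp36l2 and Cnot7 sit lower in Oasl1-/- than in WT, Zc3h12a lies under both floors, and the other 4 pairs are nearly level. Heights of different genes are not comparable, since each probe set has its own probes.

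The upstream sequences of Zfp36 and Zfp36l1 are shown because these relatives gave unlike differences between the genotypes. They are the 250 bases before the annotated start, from RefSeq on the GRCm38.p6 build, printed along the gene's own strand. The Zfp36 window lies at chr7:28379229-28379478 and the Zfp36l1 window at chr12:80113014-80113263, both on the minus strand. Capitals mark matches, on either strand, to the motifs searched.
Zfp36: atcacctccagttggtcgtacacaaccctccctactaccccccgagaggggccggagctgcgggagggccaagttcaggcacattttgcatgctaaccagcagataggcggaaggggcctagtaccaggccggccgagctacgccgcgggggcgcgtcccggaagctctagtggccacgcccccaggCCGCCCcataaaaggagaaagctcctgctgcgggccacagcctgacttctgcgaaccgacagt
Zfp36l1: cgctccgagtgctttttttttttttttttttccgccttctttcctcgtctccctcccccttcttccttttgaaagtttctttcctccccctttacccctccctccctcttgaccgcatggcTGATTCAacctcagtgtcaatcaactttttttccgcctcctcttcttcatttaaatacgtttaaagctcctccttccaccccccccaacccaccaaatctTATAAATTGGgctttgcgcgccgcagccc

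Of the 8 genes, 6 had such a window, and Isg20 had several for its alternative starts. Zfp36l2 and Cnot7 were not among them. The motifs searched were the TATA box (TATAAA), the CCAAT box, spelled as its name, a loose AP-1 pattern (TGANTCA) and the GC box (GGGCGG). The AP-1 pattern allows any base at N, where the usual AP-1 site has C or G. The Zfp36l1 window held 1 TATA box, 1 CCAAT box on the opposite strand overlapping it by a base, and 1 match to the AP-1 pattern. That match reads TGATTCA, with T at N, and so is not the usual AP-1 site. The Zfp36 window held 1 GC box on the opposite strand. Of the other members, Elavl1 had 2 CCAAT boxes, Zc3h12a 5 GC boxes, Isg20 1 CCAAT box among its windows, and Zc3hav1 no match. Whether these motifs go with the differences was not tested. Over all 32851 windows of this length, 12.4% held the TATA box, 33.8% the CCAAT box, 6.75% the loose AP-1 pattern and 32.7% the GC box. A match is a run of letters and not a shown binding site.

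The CCCH zinc finger family of Zfp36 was divided. Zfp36l1 (NM_007564, chromosome 12, positions 81208747 to 81214000 in the table's coordinates, which follow the NCBIM37 build) had 8.46 in Oasl1-/- macrophages and 8.94 in WT macrophages. The difference was -0.48, or 1.40-fold lower, and both values were above the floor. Zfp36l2 (NM_001001806, chromosome 17, positions 84583264 to 84587287) had 9.07 in Oasl1-/- and 9.55 in WT. Its difference was -0.49, also 1.40-fold lower.

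Zfp36 (NM_011756, chromosome 7, positions 29161803 to 29165272), which encodes tristetraprolin, went the other way by a small amount, with 11.03 in Oasl1-/- and 10.95 in WT, a difference of 0.08. The difference of Zfp36 thus exceeded that of Zfp36l1 by 0.56 and that of Zfp36l2 by 0.57. All 17 probes of the Zfp36l1 probe set and all 27 of the Zfp36l2 probe set are assigned to the mRNA, against 25 of 34 for Zfp36.

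Cnot7 (NM_011135, chromosome 8, positions 41577895 to 41597098), a catalytic subunit that removes adenosines from the poly(A) tail, had 8.63 in Oasl1-/- and 9.04 in WT. The difference was -0.42, or 1.33-fold lower. Its paralog Cnot8, named here after its values were seen, had 9.29 in Oasl1-/- and 9.53 in WT, a difference of -0.24. That is less than 1.2-fold. Cnot8 was brighter than Cnot7 and nearer in level to Zfp36l2. Among genes as bright as Zfp36l2, the 5th and 95th percentiles of the difference were -0.30 and 0.19. Cnot6 (0.00) and Cnot6l (0.01), the genes of the other deadenylase type in the complex, also named after their values were seen, differed by almost nothing. In bulk RNA fewer cells of a type and less RNA per cell cannot be told apart.

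The spread of other genes gives these differences a scale, in the absence of replicates. Among 1701 genes whose mean level lay within 0.5 of that of Zfp36l2, the 5th and 95th percentiles of the difference were -0.30 and 0.19, and 2 genes were as low or lower. For Zfp36l1, 20 of 2124 such genes were as low or lower, and the percentiles were -0.35 and 0.20. For Cnot7, 41 of 2019 were, and the percentiles were -0.33 and 0.20. The difference also drifted with brightness, with a median of -0.07 for genes as bright as Zfp36l1 and -0.01 for genes as bright as Zfp36. This places the 3 genes beyond most genes of like brightness on this pair of arrays. It describes the arrays and does not measure the error between cultures.

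**Figure D2:**
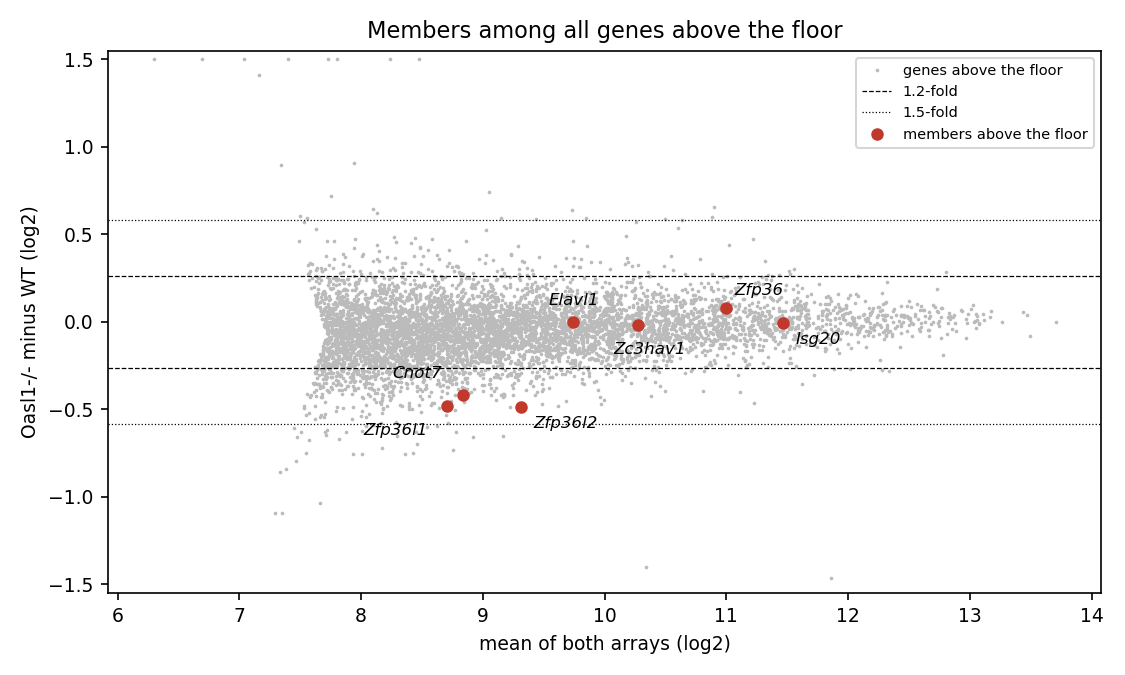
Difference of each gene (y axis, Oasl1-/- minus WT, log2) against its mean over both arrays (x axis, log2), for genes above the floor (grey) and the 7 members above it (red, named). Dashed and dotted lines mark 1.2-fold and 1.5-fold, and grey points beyond 1.5 on the y axis are drawn at the edge. Zfp36l1, Zfp36l2 and Cnot7 lie below the lower 1.2-fold line, and the other 4 members lie near 0.

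Isg20, Zc3hav1 and Elavl1 had no difference of this size. Isg20 (NM_020583, chromosome 7, positions 86058344 to 86065250), the interferon-induced exonuclease, had 11.46 in Oasl1-/- and 11.47 in WT, a difference of -0.01. Zc3hav1 (NM_028421, chromosome 6, positions 38257198 to 38304603) had 10.27 in Oasl1-/- and 10.28 in WT, a difference of -0.02. The signs of Isg20 and Zc3hav1 turned with the scaling. The single probe set of Zc3hav1 covers the gene as a whole, so the long and short forms of ZAP were not told apart. Elavl1 (NM_010485, chromosome 8, positions 4288343 to 4325086), which encodes the stabilising protein HuR, had 9.74 on both arrays, a difference of 0.00.

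Genes as bright as Isg20 had differences between -0.18 and 0.19 at the 5th and 95th percentiles, and those as bright as Elavl1 between -0.27 and 0.19. Isg20, Zc3hav1 and Elavl1 lay well inside their ranges, as did Zfp36, whose range was -0.19 to 0.19. A difference as small as theirs is within what most genes of the arrays showed, which is not evidence that the levels were equal in the cells.

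Zc3h12a (NM_153159, chromosome 4, positions 124795667 to 124805084), the gene of regnase-1, had 6.82 in Oasl1-/- and 7.20 in WT. Both values were below the floor, so no fold is given. The sign was that of Zfp36l1, Zfp36l2 and Cnot7. At such levels a difference cannot be separated from the background signal.

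Counted by size, 3 of the 7 genes above the floor were at least 1.2-fold lower in Oasl1-/- and 0 at least 1.2-fold higher. Of all 6314 genes above the floor, 9.04% were at least 1.2-fold lower and 2.69% at least 1.2-fold higher. That split, 571 lower and 170 higher, depends on the scaling and became 302 lower and 325 higher with the trend on brightness removed, where the same 3 members were still at least 1.2-fold lower. None of the 7 was at least 1.5-fold lower or higher, as were 0.554% and 0.38% of all genes. The median of the 7 genes was -0.02, against -0.04 over all genes above the floor, and over all 8 it was -0.20. The median of the 7 is the value of Zc3hav1 and hides that the genes stood in separate sets.

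The annotations in the authors' deposited table divide the genes in another way. Zfp36, Zfp36l1 and Zfp36l2 all carry the term for deadenylation-dependent mRNA decay, and Zfp36 alone of the 8 carries that for binding AU-rich elements. Elavl1 carries mRNA stabilisation, Isg20 exonuclease activity and Zc3h12a endonuclease activity, while the process terms of Cnot7 in this table concern transcription only. None of the 8 lies on chromosome 5, where Oasl1 is. Zfp36 and Isg20 share chromosome 7 and each read nearly alike on both arrays, while Cnot7 and Elavl1 share chromosome 8 and gave unlike differences.

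The other CCR4-NOT genes above the floor had smaller measured differences than Cnot7. For Cnot2 that order is uncertain, since its Oasl1-/- value was below the floor. Of 14 other subunits and recruiters measured, 10 were above the floor, 1 of them at least 1.2-fold lower and 0 higher, with a median of -0.04. The lower one was Cnot2, a structural subunit, with 7.65 in Oasl1-/-, below the floor, and 8.0 in WT, at least 1.24-fold lower when set against the floor. Cnot1, the scaffold of the complex, read 10.24 in Oasl1-/- and 10.23 in WT, and was named after its values were seen. Of 7 genes of other deadenylases and poly(A) binding, 5 were above the floor and 1 was at least 1.2-fold lower, Paip1, which binds the poly(A)-binding protein (9.53 in Oasl1-/-, 9.83 in WT, difference -0.30).

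In the lists for the later steps of decay, the genes past 1.2-fold can be read against the 9.04% lower and 2.69% higher among all genes above the floor. Of 18 decapping genes 12 were above the floor and none passed 1.2-fold. The decapping enzyme gene Dcp2 had the largest difference among them, -0.17 (9.63 in Oasl1-/-, 9.80 in WT), and Lsm7, of the LSM ring, followed with -0.14. Of 19 exonuclease and exosome genes measured, 11 were above the floor and 1 was at least 1.2-fold lower, Hbs1l, of the ribosome rescue pathway (8.80 in Oasl1-/-, 9.07 in WT, difference -0.27). The median of that list was -0.12, with 9 of 11 below 0, against 63.4% of all genes above the floor. The list median was -0.07 with the trend on brightness removed and -0.06 with no floor or the array median as the floor. The 63.4% depends on the scaling too, since centring puts the median of all genes at 0. Of 10 genes of nonsense-mediated decay, 6 were above the floor and 1 was lower, Smg9, with 7.59 in Oasl1-/-, below the floor, and 7.91 in WT, at least 1.17-fold lower.

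Among 27 other proteins that bind AU-rich or similar elements, 19 were above the floor, 1 of them at least 1.2-fold higher and 1 lower, and the median was -0.07. The higher one was Arid5a, known for stabilising Il6 mRNA against regnase-1, with 8.45 in Oasl1-/- and 7.82 in WT. Its difference of 0.62, or 1.54-fold higher, was the only one past 1.5-fold in the decay machinery lists. The WT value lay just above the WT floor of 7.75. The lower one was Ythdf3, a reader of methylated adenosine (9.27 in Oasl1-/-, 9.59 in WT, difference -0.32). Of the partners of ZAP, 3 of 5 were above the floor and none passed 1.2-fold. Trim25, the E3 ligase that ZAP needs, had 10.69 in Oasl1-/- and 10.95 in WT, a difference of -0.26, and Ddx17 had -0.03.

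The p38 kinase pathway phosphorylates tristetraprolin and so holds back its activity. Of 14 genes listed for it, 13 were above the floor. Among these, 3 were at least 1.2-fold lower and 0 higher, against 9.04% and 2.69% of all genes. Genes that act against p38, such as Dusp1, are in this list, so its counts give no direction for the pathway. The list median was -0.08, against -0.04. Mapkapk3, a kinase downstream of p38, had 7.95 in Oasl1-/- and 8.39 in WT (difference -0.43). Map2k3, which activates p38, had 8.49 in Oasl1-/- and 8.86 in WT (difference -0.36). Dusp1, the phosphatase that switches p38 off, had a difference of -0.35. Mapkapk2, the main kinase of tristetraprolin, named after its values were seen, read 11.65 in Oasl1-/- and 11.58 in WT.

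In all 8 machinery and pathway lists together, 8 of the 79 genes above the floor (10.1%) were at least 1.2-fold lower and 1 (1.27%) at least 1.2-fold higher, near the 9.04% and 2.69% of all genes. The median of the 79 genes was -0.05. Cnot2 and Smg9, counted among the 8, passed the floor only through the WT array. Asking for values above the floor on both arrays drops only Cnot2 and Smg9 from the 79 genes. Of those left, 6 were at least 1.2-fold lower, as were 464 of 5943 among all genes. The 13 other genes above the floor that the deposited table describes as CCCH zinc finger genes, a list made after seeing the data, had a median of -0.08, with 1 gene at least 1.2-fold lower and 0 higher.

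**Figure D3:**
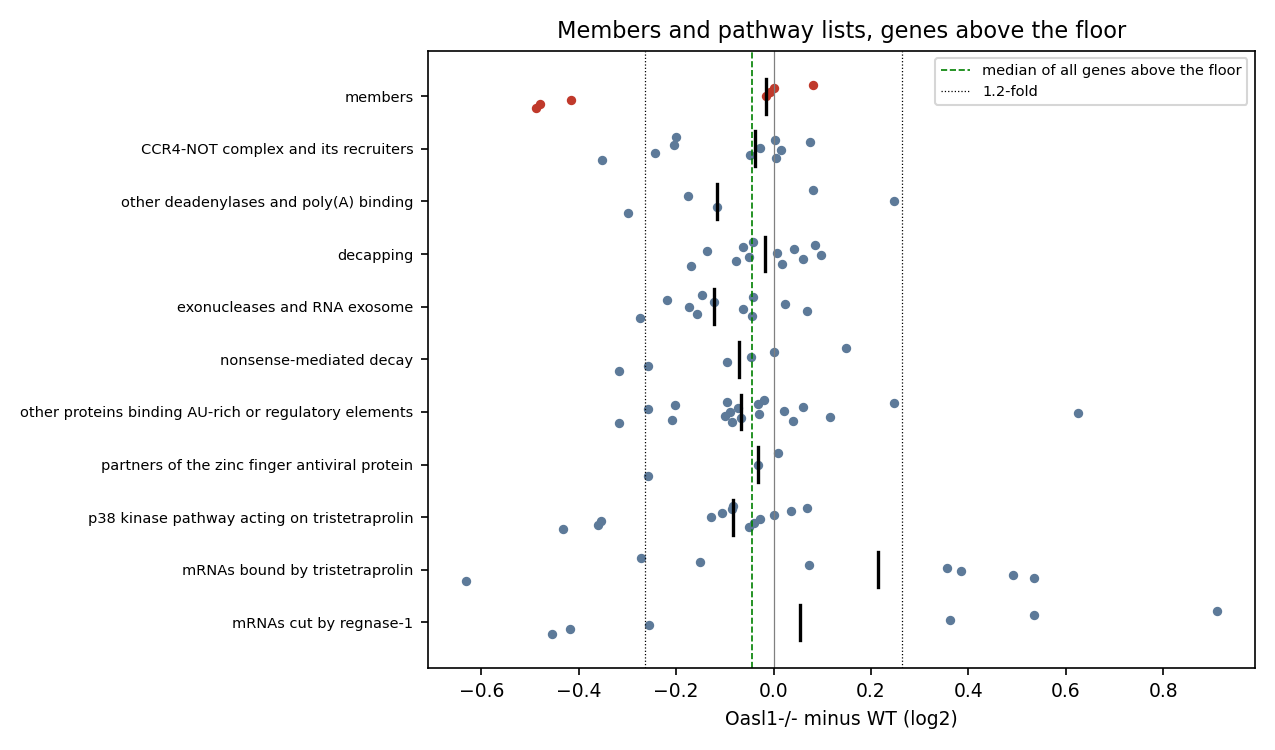
Differences (x axis, Oasl1-/- minus WT, log2) of the members (red) and of the genes of each list (blue), 1 point per gene above the floor, with the list median as a black bar. The green dashed line is the median of all genes above the floor and dotted lines mark 1.2-fold. The medians of the machinery lists lie between -0.12 and -0.02, while the mRNAs bound by tristetraprolin or cut by regnase-1 spread to both sides.

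Several mRNAs that these proteins act on differed by more than 1.2-fold, in both directions. The lists of mRNAs bound by tristetraprolin and of mRNAs cut by regnase-1 share 5 genes, and together 13 of their 26 genes were above the floor. Of those 13, 6 (46.2%) were at least 1.2-fold higher in Oasl1-/- and 4 (30.8%) at least 1.2-fold lower, against 2.69% higher and 9.04% lower among all genes above the floor. Their median was 0.07, and -0.04 with the array median as the floor. The lists hold inducible genes chosen with earlier results known, and differences of other kinds in such genes cannot be told apart from those of mRNA decay, which was not measured.

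Among the mRNAs bound by tristetraprolin, 8 of 19 were above the floor, 4 of them at least 1.2-fold higher and 2 lower, with a median of 0.21. Ptgs2, the inducible cyclooxygenase, had 10.87 in Oasl1-/- and 10.34 in WT (difference 0.53), and Ccl2, a monocyte attractant, a difference of 0.49. Il10, the anti-inflammatory cytokine, had 9.42 in Oasl1-/- and 9.04 in WT (difference 0.38). Cxcl2, a neutrophil attractant, had 8.47 in Oasl1-/- and 9.10 in WT (difference -0.63). Nos2 (0.36) and Tnf (-0.27), named after their values were seen, were the other two past 1.2-fold. The mRNA of Tnf, the classical target of tristetraprolin, read 11.88 in Oasl1-/- and 12.15 in WT.

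Among the mRNAs cut by regnase-1, 6 of 12 were above the floor, 3 of them at least 1.2-fold higher and 2 lower. The median was 0.05, but its sign turned with each other floor, to -0.03 above the floor on both arrays, -0.04 with the array median and -0.05 with no floor. Lcn2, a siderophore-binding protein also made by neutrophils, had 8.40 in Oasl1-/- and 7.49 in WT, below the floor, and was at least 1.56-fold higher. It passed the floor only through the Oasl1-/- array. Il12b, a subunit of interleukin 12, had 9.22 in Oasl1-/- and 9.64 in WT (difference -0.42), and Nfkbiz, an NF-kB cofactor, a difference of -0.46. Il6, the best-known target of regnase-1, was below the floor on both arrays, with 5.83 in Oasl1-/- and 5.12 in WT. Il6 and Tfrc (9.86 in Oasl1-/-, 9.50 in WT, difference 0.36) were named after their values were seen.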

How the data were processed

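The deposited log2 values are 1 per probe set and array, 35556 probe sets in all. GCOS and RMA (a method of background correction, normalization and probe summary) were used per the submitters' processing notes, which give no version. Joint or separate normalization of the arrays is not stated there. The series value table differed from the authors' table by 0, and the authors' log2 ratio equalled Oasl1-/- minus WT. RMA compresses differences of dim probe sets, and mixing RNA leaves no spread between cultures to be seen. Precision is limited by the number of arrays.

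Symbols were updated through RefSeq (GRCm38.p6) by accession (20515 probe sets), synonym (1236) or symbol (1840), while 1714 kept the table's name and 10251 had several or none and were left out. A gene was represented by its brightest probe set on its own chromosome. The floor used 5267 negative control probe sets. Of probe sets described with an NCBIM37 position, 92.9% overlapped it. Counts use measured differences. Where 1 array was below the floor, the fold is a lower bound against that floor.

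The members and lists were chosen with earlier results of these data known. The rule named all members, Oasl1, and per list up to 4 genes past 1.2-fold or else the 2 with the largest difference. Alternatives were a 2-fold threshold, 3 other floors, centring, a loess trend (span 0.3), quantile normalization, means over probe sets, log2 of the linear value plus 32, and the second table. The counting was tested on simulated 2-fold differences at the 1.5-fold threshold only, which does not test the counts at 1.2-fold. Python 3.11.15, NumPy 2.4.6, pandas 2.3.3, statsmodels 0.14.6 and Matplotlib 3.10.9 were used.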

Additional observations from a re-analysis of the deposited data

How the results depend on the processing

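No paired analysis was possible because each genotype had 1 array. For the same reason no replicate could be left out. Zfp36l1 stayed between -0.48 and -0.41, Zfp36l2 between -0.49 and -0.44 and Cnot7 between -0.42 and -0.35 under 9 alternatives each. The other floors, means over probe sets and the second table could not move these differences, so they do not test them. Only centring, the loess trend, quantile normalization and the constant added to the linear value could. Under each of those the count of members at least 1.2-fold lower was 3. It was 0 at the 2-fold threshold. Isg20 (-0.02 to 0.04) and Zc3hav1 (-0.02 to 0.03) lie on either side of 0 with the scaling, Zfp36 ran from 0.08 to 0.12 and Elavl1 from 0.00 to 0.05. With no floor or the array median as the floor, Zc3h12a (-0.38) enters and the members' median becomes -0.20.

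The background depends on the scaling. Genes at least 1.2-fold lower and higher numbered 371 and 275 after centring, 302 and 325 with the loess trend removed and 338 and 294 after quantile normalization, against 571 and 170 as reported. They numbered 1337 and 994 with the array median as the floor, 1820 and 2383 with no floor, and 5 and 9 at 2-fold. Genes at least 1.5-fold lower (35 as reported) numbered 17 above the floor on both arrays, 106 with the array median, 130 with no floor, 20 with loess, 21 after quantile normalization and 21 with the value plus 32. Those at least 1.5-fold higher (24) numbered 10 above the floor on both arrays, 72 with the array median and 142 with no floor.

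In the machinery lists, genes at least 1.2-fold higher (1 as reported) numbered 3 after centring, loess or quantile normalization and with no floor, and 0 at 2-fold. Those at least 1.2-fold lower (8) numbered 5 with loess, 13 with no floor and 0 at 2-fold. Arid5a fell short of 1.5-fold with the value plus 32, leaving 0. In the target lists, genes at least 1.2-fold higher (6) numbered 10 with no floor. Those at least 1.5-fold higher (1) numbered 0 above the floor on both arrays, 2 with the array median and 3 with no floor, and those at least 1.5-fold lower (1) 0 with loess and quantile normalization. At 2-fold the target lists had 0 in either direction. The cause of these shifts was not tested beyond the genes each setting adds or drops. Of 155 single gene and list values under the alternatives, 154 moved by less than the robust SD of all differences (0.14). Some of these could not move, so the count overstates stability. Member differences do not depend on the floor or on means over probe sets, and the second table equalled the first. The median of the mRNAs bound by tristetraprolin moved to 0.02 with the array median as the floor. The median of the target lists together turned to -0.04 there, and that of the mRNAs cut by regnase-1 was below 0 under each of the 3 other floors.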
